A study of Mus musculus with 42 samples.

Results

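Day 30 was set against day 4 in a culture of mouse embryonic stem cells that was directed towards the osteoblast lineage, and these days are the end and the start of the course. The members were chosen by title: 3 replicates labelled Osteo30 VD3 and 3 labelled Osteo Day 4, each read on an MOE430A and an MOE430B chip (430A and 430B below). They make up 12 of the 42 arrays of the series, or 6 of its 21 RNA samples. The other arrays belong to days 5, 6, 8, 16 and 25.

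The day 30 cells and the day 4 cells were both of the D3 line, a blastocyst-derived mouse embryonic stem cell line, and total RNA was taken from cultures in DMEM at 37 C on both days. Vitamin D3, beta-glycerophosphate and ascorbic acid are named as supplements for both days, and VD3 stands in the title of the day 30 samples and not of the day 4 samples. The labels call the cells a pure clone and leave the contaminating cell type undetermined. VD3 is in the titles of day 6 and all later days, so exposure to vitamin D3 may differ between the days and cannot be told apart from time in culture. Differentiation without these supplements was not analysed here. Nothing says whether the 3 replicates of a day came from separate cultures. The p-values rest on the spread between replicates of a day, pooled over the 7 days of a chip, and that spread may be technical.

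A cell that divides fast spends much of its RNA on ribosome assembly, DNA replication and mitosis, and a cell that secretes a matrix spends it on endoplasmic reticulum (ER) chaperones, collagen-modifying enzymes and lysosomes. Osteoblasts are cells of the second kind: they fold, hydroxylate and export large amounts of collagen. Embryonic stem cells are of the first kind, and they also hold high levels of DNA methyltransferases and other chromatin enzymes.

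Each value below is a log2 signal, the log2 of the MAS5 signal of a probe set, and each difference is day 30 minus day 4 on that scale. A probe set was called where limma, fitted over the 7 days of a chip, gave an adjusted p under 0.05, and "rose" and "fell" are written only of called probe sets. On 430A 2371 of 16686 tested probe sets rose (14.2%) and 2324 fell (13.9%). On 430B 769 of 18239 rose (4.22%) and 619 fell (3.39%). With median centring, rises made up 66.3% of the 430B calls, against 55.4% as deposited, and the median of all its probe sets was 0.01, against -0.09 as deposited. With a single probe set for each gene, 1890 of 15592 genes rose (12.1%) and 1618 fell (10.4%), and the median difference was -0.03. In 5294 of the 15592 genes (34%) the values of the 2 days did not overlap. At 16-fold or more, 113 probe sets rose and 20 fell on 430A, and 26 rose and 6 fell on 430B. Where the lower of the 2 days lay among the dimmest probe sets, the fold is given as a lower bound ("at least").

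All day 30 arrays were scanned on other days than all day 4 arrays, on both chips, so scan day and day of culture cannot be told apart in this comparison. Nor can chip lot on 430B, where no day 30 array shared a lot with day 4. On 430A day 30 replicates 2 and 3 had the lot of day 4, and replicate 1 had another. On 430B day 30 replicate 1 differed from replicates 2 and 3 in scan day and lot. Day 16 and day 6 share a single scan day on each chip and share no array with day 30 or day 4, and their titles both name VD3. Their difference is given beside some groups of genes and, for the others, with the comparison of scan days further on. In that comparison 873 of the 15592 genes rose (5.6%) and 542 fell (3.48%), and 1.76% of the 430B probe sets were called in either direction. The 3'/5' ratio of the Gapdh control probe sets, a sign of RNA length, was 3.27 ± 0.19 on day 30 and 2.63 ± 0.37 on day 4 (log2, 430A, SD, n = 3 each), and the actin ratio was 2.49 ± 0.22 on day 30 and 2.62 ± 0.54 on day 4. Array medians lay between 549.7 and 580.0 on day 30, against 502.1 to 578.5 on day 4, on 430A.

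The labels were checked against markers. Of 6 pluripotency markers 4 fell (Pou5f1, Sox2, Nanog and Tdgf1; Sox2 did not pass without day 4 replicate 3 or day 30 replicate 2), and their summed signal was 2196 to 2424 on day 30, against 13135 to 40444 on day 4. Of 10 osteoblast markers 4 were tested, and of these Sparc and Pth1r rose (Pth1r did not pass without day 4 replicate 3). Sp7 and Alpl did not pass, with differences of 0.37 and -1.23, so Alpl lay the other way. Ibsp, Phex and Dmp1 lay under the filter on low signal, and Runx2, Bglap and Spp1 were not found under a single symbol. The summed signal of the 4 tested was 125194 to 169713 on day 30, against 4644 to 11481 on day 4, most of it from Sparc. In a bulk culture, fewer cells of a type and less RNA per cell cannot be told apart.

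**Figure D1:**
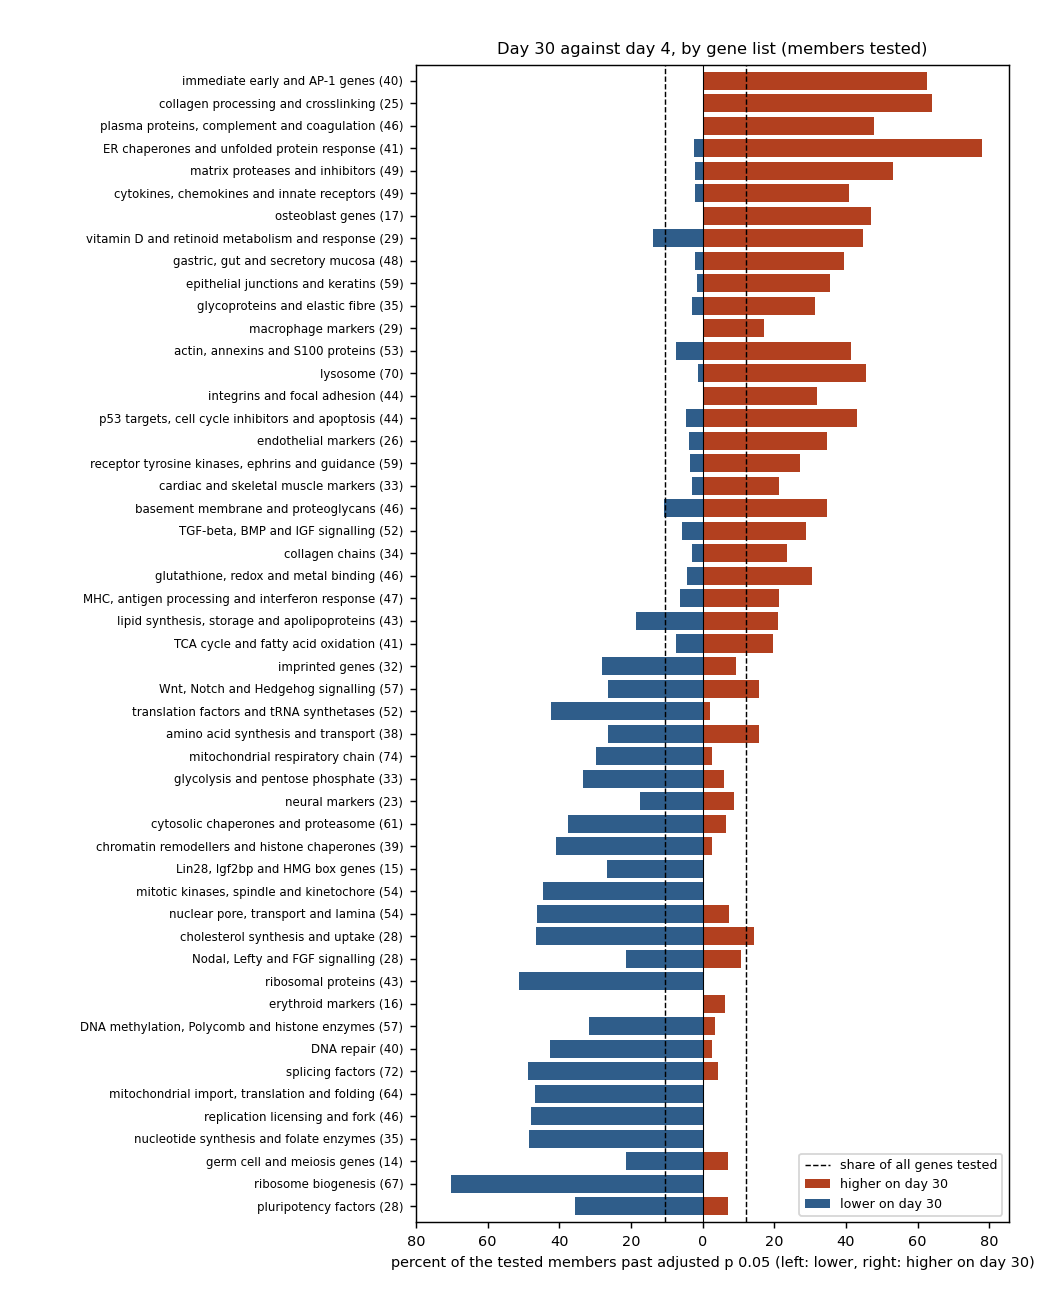
Percent of the tested members of each of 51 gene lists that fell (left of 0) or rose (right of 0) on day 30 relative to day 4, with the number tested in parentheses and the lists ordered by their median difference. The dashed lines are the shares over all 15592 genes, 10.4% lower and 12.1% higher; ER chaperones reach 78% higher and ribosome biogenesis 70.1% lower.

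Genes of the secretory pathway were higher on day 30 in a larger share than any other list examined. Of 41 tested ER chaperones and unfolded protein response genes, 32 rose and 1 fell, against 12.1% and 10.4% of all genes, and the median difference was 1.33. Kdelr3, a receptor that returns escaped chaperones to the ER, had a log2 signal of 12.69, 13.17 and 12.59 on day 30, against 8.34, 8.90 and 8.56 on day 4. The 3 day 30 values lie far above the day 4 values, and the difference was 4.22 ± 0.54 (SE, adjusted p = 8.74e-06), or 18.6-fold. Ero1a, the oxidase that recharges protein disulfide isomerase, had 15.99, 15.89 and 16.10 on day 30, against 13.85, 12.68 and 13.34 on day 4, a difference of 2.70 ± 0.31 (SE, adjusted p = 2.03e-06). Sec24d, a cargo adaptor of the COPII coat, rose 6.42-fold, adjusted p = 6.22e-06, and Creb3l2, an ER-bound transcription factor of secretory cells, rose 7.74-fold, adjusted p = 4.1e-05.

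The rise covered several steps of the pathway. Disulfide isomerases rose (Pdia3 by 2.37 log2 units, Pdia5 by 2.58 and P4hb, which is also the beta subunit of prolyl 4-hydroxylase, by 1.88), and so did the stress sensors and their effectors Atf6 (1.48), Xbp1 (1.75) and Atf4 (1.28). Genes of ER-associated degradation rose too, among them Herpud1 by 2.14 and Edem1 by 1.96. Sec61b, a subunit of the translocation channel, was the member that fell, by 0.80, and it did not pass without day 4 replicate 2, day 30 replicate 1 or day 30 replicate 3 (adjusted p of 0.0527 to 0.0773). Ppp1r15a and Ddit3, which mark a prolonged stress response, did not pass, with differences of -0.01 and 0.79. On day 16 against day 6, 8 of the list rose, with a median of 0.53.

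The ER stress response element, CCAAT followed after 9 bases by CCACG, is the site through which ATF6 and NF-Y are known to act on chaperone genes. It was searched for on both strands in the 250 bases before each gene's start, in RefSeq sequences of GRCm38.p6. It lies before 8 of the 34 list members that have a promoter sequence (23.5%), against 35 of all 27025 promoters (0.13%). Of those 8, 7 rose, beside 32 of 41 in the whole list, and Canx did not pass, at 0.50 (adjusted p = 0.139). The windows of 60 bases around the match are shown for the 7 that rose, since they are the members that share both the letters and the direction. Capitals mark the match. In Hsp90b1, Creld2 and Calr it lies on the other strand and reads CGTGG to ATTGG. These genes were picked by the motif with their values known, and a match is a description of the letters, not of binding.
Hspa5: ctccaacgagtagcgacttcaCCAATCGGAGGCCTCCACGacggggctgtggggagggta
Hsp90b1: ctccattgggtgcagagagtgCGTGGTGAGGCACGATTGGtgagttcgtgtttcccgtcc
Pdia6: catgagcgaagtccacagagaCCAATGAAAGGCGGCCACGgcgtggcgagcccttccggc
Creld2: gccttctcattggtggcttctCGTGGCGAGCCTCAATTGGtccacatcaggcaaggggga
Calr: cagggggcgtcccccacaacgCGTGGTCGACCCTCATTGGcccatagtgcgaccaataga
Dnajc3: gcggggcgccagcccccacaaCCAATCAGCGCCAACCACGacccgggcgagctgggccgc
Syvn1: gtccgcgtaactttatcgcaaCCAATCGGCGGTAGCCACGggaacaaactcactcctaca
They lie at chr2:34772004-34772063 (plus strand) for Hspa5, chr10:86705513-86705572 (minus strand) for Hsp90b1, chr12:17266470-17266529 (plus strand) for Pdia6, chr15:88819499-88819558 (plus strand) for Creld2, chr8:84847055-84847114 (minus strand) for Calr, chr14:118937806-118937865 (plus strand) for Dnajc3 and chr19:6046511-6046570 (plus strand) for Syvn1. All 7 windows are upstream of the gene. Hspa5, the main ER chaperone BiP, rose by 1.93 log2 units (adjusted p = 0.00041), and by 1.30 without day 4 replicate 2. Hsp90b1, the ER form of the heat shock protein Hsp90, rose by 1.77, and the lectin chaperone Calr by 1.14. Pdia6, a disulfide isomerase, rose by 1.51 and did not pass without day 4 replicate 2 (adjusted p = 0.0599). Creld2 rose by 1.19, the co-chaperone Dnajc3 by 1.00 and the ubiquitin ligase Syvn1 by 0.81. Creld2 and Dnajc3 each lost the call without day 30 replicate 2 (adjusted p = 0.0906 and 0.0625), and also without a day 4 replicate. Over all tested genes with a promoter sequence, 16 hold the element, of which 8 rose, and 7 of these are the list members shown. Outside the list only Ero1b rose, by 1.05. Derl3, Pan2, Adcy3, 4930402F11Rik and Alg12 did not pass, at -0.79, -0.32, -0.28, -0.07 and -0.05. Acacb and Tdrd9 did not pass either, at 0.08 and 1.74.

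**Figure D2:**
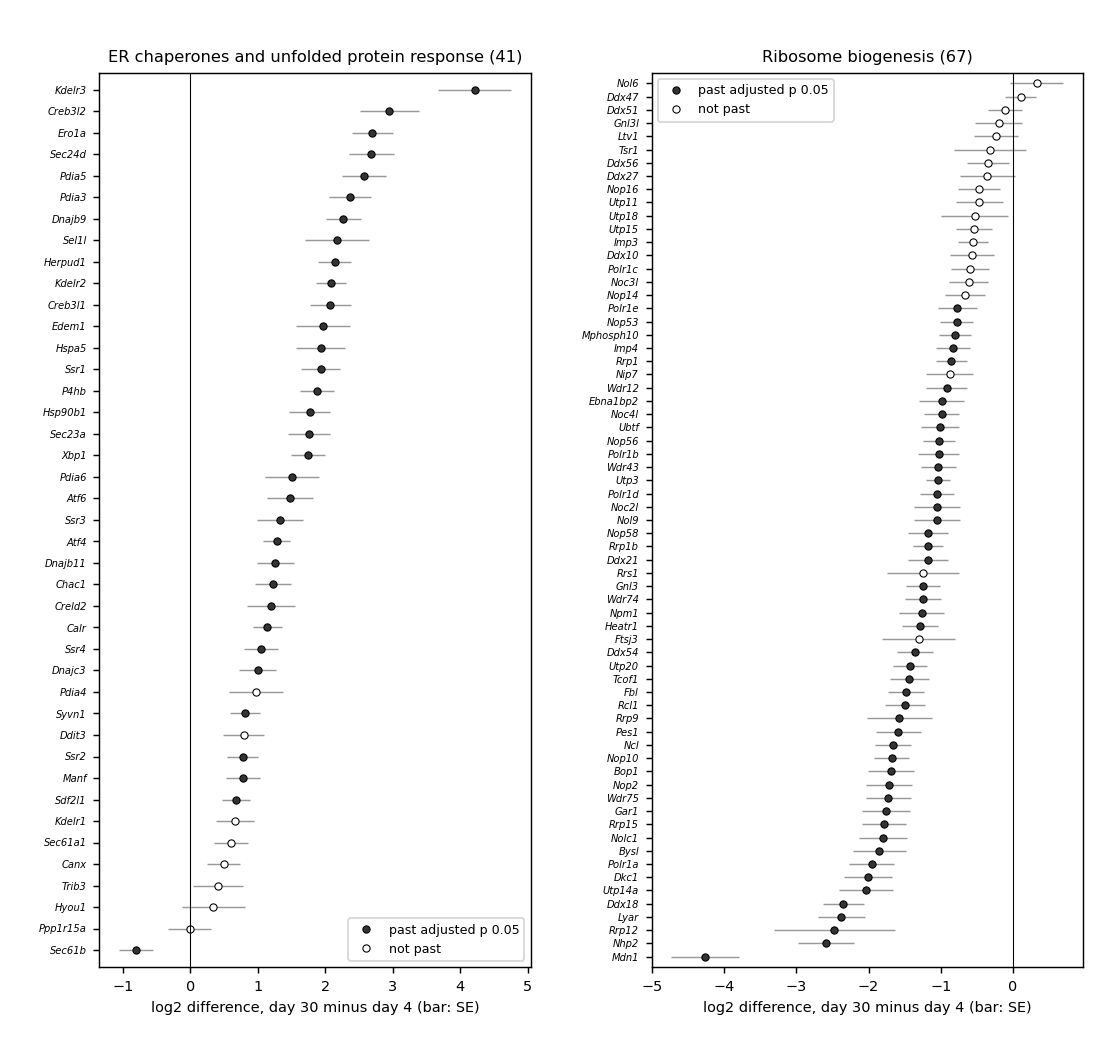
Log2 difference, day 30 minus day 4, of every tested ER chaperone and unfolded protein response gene (left, 41) and every tested ribosome biogenesis gene (right, 67), with its standard error as a bar; filled points passed an adjusted p of 0.05. On the left 32 of the filled points lie right of 0 and on the right 47 lie left of 0.

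Enzymes that process collagen rose with the chaperones. Of 25 tested, 16 rose and 0 fell (limma; 0 fell at an unadjusted p under 0.05), with a median difference of 1.64. Plod2, a lysyl hydroxylase, had a log2 signal of 15.31, 15.98 and 15.33 on day 30, against 11.90, 10.52 and 11.32 on day 4. P4ha2, a catalytic subunit of prolyl 4-hydroxylase, had 15.01, 15.31 and 15.02 on day 30, against 11.31, 10.79 and 10.39 on day 4. In neither gene do the days overlap, and the differences were 4.29 ± 0.29 (SE, adjusted p = 7.51e-09) and 4.28 ± 0.35 (SE, adjusted p = 4.23e-08). Lox, which crosslinks collagen, rose 18.3-fold, adjusted p = 1.43e-05, and Serpinh1, the collagen chaperone Hsp47, rose 13.9-fold, adjusted p = 6.82e-07. Day 16 against day 6 gave 13 rises in this list and a median of 1.57, so a similar number passed in the comparison within a scan day.

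Fewer of the collagen chains passed. Of 34 tested, 8 rose, 1 fell and the median difference was 0.44. The type IV chains of basement membranes, Col4a2 and Col4a1, rose 30.7-fold and 25.6-fold. Among fibrillar chains, Col3a1 rose 27.1-fold (69.2-fold when day 4 replicate 1 was left out and 15.1-fold when day 4 replicate 2 was left out), adjusted p = 0.0024, and Col5a2 rose 17.9-fold, adjusted p = 1.2e-05. Col1a1 and Col1a2, the chains of type I collagen, rose 16.7-fold (32.5-fold when day 4 replicate 1 was left out and 11-fold when day 4 replicate 3 was left out) and 16.8-fold (26.8-fold when day 4 replicate 1 was left out). Col18a1 fell 3.71-fold, adjusted p = 0.00168. On day 16 against day 6, 16 chains rose and the median was 1.60, above that of day 30 against day 4.

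Basement membrane and proteoglycan genes included 16 rises and 5 falls among 46 tested, with a median of 0.48; the falls were 3 without day 4 replicate 1 or 3. Nid1, which links laminin to type IV collagen, rose 35.9-fold, adjusted p = 2.7e-08, and Gpc1, a heparan sulfate proteoglycan, fell at least 5.02-fold, adjusted p = 0.000298. Of 35 other glycoproteins and elastic fibre genes, 11 rose and 1 fell. Crim1, a transmembrane binder of bone morphogenetic proteins, had a log2 signal of 13.23, 13.61 and 13.57 on day 30, against 7.78, 6.00 and 7.76 on day 4, which is at least 62.9-fold higher. Efemp1 (fibulin 3) and Ecm1 rose 12.9-fold and 10.4-fold, and Thbs3, a thrombospondin, fell at least 5.41-fold, adjusted p = 0.00715.

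Matrix proteases and their inhibitors rose together. Of 49 tested, 26 rose, 1 fell and the median was 1.28, with 17 rises on day 16 against day 6. Htra1, a secreted serine protease, had 12.83, 12.20 and 12.67 on day 30, against 7.47, 7.15 and 8.04 on day 4, a difference of 5.01 ± 0.57 (SE, adjusted p = 2.03e-06). Plat, tissue plasminogen activator, had 14.06, 13.91 and 13.66 on day 30, against 9.64, 9.16 and 7.40 on day 4, and rose 35.4-fold (22.2-fold when day 4 replicate 3 was left out). The metalloprotease inhibitor Timp2 rose 14-fold, adjusted p = 1.31e-07, while Mmp11 fell at least 3.14-fold, adjusted p = 0.00577.

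Genes of cell attachment and shape moved the same way. Of 44 integrin and focal adhesion genes, 14 rose and 0 fell (limma; 1 at an unadjusted p under 0.05), with a median of 0.76. The laminin-receptor subunit Itga6 rose 6.45-fold, Itgav rose 5.37-fold and Itgb3, its partner in the vitronectin receptor, rose at least 5.05-fold; the 2 other probe sets of Itgav did not pass. Among 53 actin, annexin and S100 genes, 22 rose and 4 fell. The calcium-binding S100a14 rose at least 36.6-fold, adjusted p = 1.33e-06 and S100a6 11.7-fold, adjusted p = 5.43e-07, and the phospholipid-binding Anxa1 and Anxa3 rose 17.7-fold and 15-fold. Cnn1, smooth muscle calponin, fell 4.7-fold and did not pass without day 4 replicate 2 (3.65-fold).

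The lysosome list held 32 rises and 1 fall among 70 tested members, with a median of 0.77. Ctsh, a cathepsin with aminopeptidase activity, had a log2 signal of 14.07, 14.18 and 13.72 on day 30, against 11.28, 11.06 and 9.74 on day 4. The lowest day 30 value lies well above the highest day 4 value, and the difference was 3.30 ± 0.59 (SE, adjusted p = 0.000299). Ctsl rose 7.5-fold, adjusted p = 1.18e-06, Ctsf rose at least 7.93-fold, adjusted p = 7.08e-05 and Lgmn, the asparaginyl protease legumain, rose 6.99-fold, adjusted p = 2.49e-05. Laptm4b, a membrane protein of late endosomes, fell 2.05-fold, adjusted p = 0.00313. Already on day 16, relative to day 6, 20 of the list rose. Macrophages are rich in these enzymes. On day 30 relative to day 4, 4 of 22 tested macrophage markers rose (5 of 29 in the longer list described below). Among those that did not pass, Spi1, Fcgr1, C1qa, Mrc1 and Trem2 had differences of -0.02, -0.53, 0.04, 0.05 and 0.23. Fcgr3 and Laptm5, at 2.23 and 1.75, did not pass either. On day 30 the brightest of the 22 were Csf1r and Cd14, with log2 signals of 13.08 to 13.64 and 11.76 to 12.17, and both rose. The summed signal of the 22 was 23901 to 27703 on day 30, against 7212 to 9690 on day 4; its part in the lysosomal rise was not tested.

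The CLEAR element, TCACGTGA, is the site bound by TFEB, the regulator of lysosomal genes. It was found in the 250 bases before 7 of 57 list members with a promoter sequence (12.3%), against 0.91% of all 27025 promoters. Among the 12448 tested genes with a promoter sequence the share was 1.48%. Of those 7, Ctsd, Atp6v1a and Ctsa rose, and Gla, Igf2r, Mcoln1 and Cln3 did not pass; in the whole list 32 of 70 rose, so the members with the element did not rise in a larger share. The windows of the 3 that rose are shown, with the match in capitals.
Ctsd: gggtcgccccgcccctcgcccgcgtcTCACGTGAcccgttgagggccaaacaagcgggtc
Atp6v1a: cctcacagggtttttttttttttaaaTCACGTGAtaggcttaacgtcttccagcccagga
Ctsa: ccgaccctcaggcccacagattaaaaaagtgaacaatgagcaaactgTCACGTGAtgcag
Ctsd, the aspartyl protease cathepsin D, rose by 1.46 log2 units (adjusted p = 1.66e-05), and its window is chr7:142387893-142387952 (minus strand). Atp6v1a, the catalytic subunit of the proton pump, rose by 1.33, and its window is chr16:44139358-44139417 (minus strand). Ctsa, which stabilises a lysosomal sialidase complex, rose by 1.28, and its window is chr2:164833713-164833772 (plus strand). Among all tested genes with the element, 37 of 184 rose (20.1%) and 24 fell, both in larger shares than among all genes (12.1% and 10.4%).

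Immediate early genes and genes that halt the cycle were higher on day 30. Of 40 immediate early and AP-1 genes, 25 rose and 0 fell (limma; 2 at an unadjusted p under 0.05), with a median of 1.69, the largest median among the 51 lists. Fos, a subunit of AP-1, had a log2 signal of 15.14, 14.37 and 14.25 on day 30, against 10.29, 9.99 and 10.87 on day 4. Atf3, a stress-induced partner of AP-1, had 12.99, 12.80 and 12.20 on day 30, against 8.02, 8.89 and 8.47 on day 4. All day 30 values of both genes exceed all day 4 values, and the differences were 4.20 ± 0.40 (SE, adjusted p = 3.35e-07) and 4.20 ± 0.40 (SE, adjusted p = 2.68e-07). Klf4, a factor shared by stem cells and differentiated epithelium, rose 18.5-fold, adjusted p = 6.65e-09, and Ccn2, a matricellular growth factor, rose 32.8-fold (19.6-fold when day 4 replicate 2 was left out). The comparison of day 16 with day 6 gave 18 rises and a median of 1.19.

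Of 44 p53 targets, cycle inhibitors and apoptosis genes, 19 rose and 2 fell, and 12 rose in a fit of the 2 days alone. Cdkn1a, the inhibitor p21 of cyclin-dependent kinases, had 14.91, 15.09 and 15.15 on day 30, against 12.08, 12.12 and 12.47 on day 4. The difference was 2.83 ± 0.23 (SE, adjusted p = 3.45e-08), and on day 16 against day 6 it was 2.89. The antiproliferative genes Btg1 and Btg2 rose 11.9-fold and 6.24-fold, and Cdkn2b, the inhibitor p15, rose at least 11.1-fold (7.08-fold when day 4 replicate 2 was left out). The proapoptotic Bid fell at least 4.52-fold and did not pass without day 30 replicate 2.

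Ribosome assembly was the function with the largest share of falling genes. Of 67 ribosome biogenesis genes tested, 47 fell (70.1%, against 10.4% of all genes) and 0 rose (limma; 0 at an unadjusted p under 0.05), with a median difference of -1.06. Nhp2, a protein of the particles that modify ribosomal RNA, had a log2 signal of 12.34, 12.50 and 12.35 on day 30, against 14.40, 15.06 and 15.49 on day 4. The 3 day 30 values lie within a narrow range below all day 4 values, and the difference was -2.59 ± 0.39 (SE, adjusted p = 4.88e-05). Mdn1, the giant ATPase that releases factors from the large subunit precursor, fell at least 16.4-fold, adjusted p = 1.55e-06, and its 2 other probe sets did not pass. The nucleolar proteins Lyar and Ddx18 fell 5.2-fold, adjusted p = 1.79e-05 and 5.1-fold, adjusted p = 5.48e-06. The falls covered several steps of assembly: nucleolin (Ncl) fell by 1.66 on the log2 scale, the methyltransferase fibrillarin (Fbl) by 1.48, and Polr1a, the largest subunit of RNA polymerase I, by 1.96. On day 16 against day 6, 15 members fell, with a median of -0.66.

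Ribosomal proteins themselves fell in 22 of 43 tested members, with a median of -0.66, and 0 rose (limma; 0 at an unadjusted p under 0.05). Rpl41 had a log2 signal of 14.72, 14.29 and 15.02 on day 30, against 16.92, 17.58 and 17.07 on day 4, and the difference was -2.52 ± 0.26 (SE, adjusted p = 7.92e-07). Rpl14, Rpl12 and Rpl27 fell 3.64-fold, 3.27-fold and 2.44-fold. The falls numbered 12 in a fit of the 2 days alone, and within a single scan day, on day 16 against day 6, the median was -0.05. Quantile normalization brought the median of day 30 against day 4 to -0.25, with 15 falls. In day 16 against day 6, 0 members passed in limma, and 0 were higher and 3 lower at an unadjusted p under 0.05. Multigene families with many processed copies can share probes, which limits what a single ribosomal probe set measures.

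Translation factors and tRNA synthetases gave 22 falls and 1 rise among 52, with a smaller median of -0.28. The falls were 12 in a fit of the 2 days alone, and 14 with the Gapdh 3'/5' ratio as a covariate or without day 30 replicate 3. Kars, the lysyl-tRNA synthetase, fell 2.78-fold, adjusted p = 0.000305, and Eif5a, a translation factor, fell 2.32-fold, adjusted p = 3.52e-05. Day 16 against day 6 gave 5 falls.

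Many genes of DNA replication and mitosis fell, and others did not pass. Of 46 replication genes, 22 fell and 0 rose (limma; 0 at an unadjusted p under 0.05), with a median of -0.87. Mcm7, a subunit of the replicative helicase, had a log2 signal of 13.35, 13.38 and 13.23 on day 30, against 15.15, 15.70 and 15.30 on day 4. Day 30 values are almost equal to each other and lie below the day 4 values, at -2.06 ± 0.24 (SE, adjusted p = 2.81e-06). Pold2, a subunit of DNA polymerase delta, fell 5.11-fold, adjusted p = 6.26e-05. Of 54 mitotic genes, 24 fell and 0 rose (limma; 0 at an unadjusted p under 0.05), and 30 did not pass. Cdk1, Mki67, Prc1, Kif11 and Top2a were among those that did not pass, at -0.25, -0.36, -0.42, -0.53 and -0.69. Cdc20, an activator of the anaphase-promoting complex, had 12.19, 11.99 and 11.68 on day 30, against 14.17, 15.06 and 14.26 on day 4, a difference of -2.54 ± 0.30 (SE, adjusted p = 3.69e-06). The centromere protein Cenpk, the condensin subunit Ncapd2 and the checkpoint kinase Bub1b fell 4.65-fold, 4.35-fold and 3.58-fold.

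The comparison within a scan day gave at least as many falls. On day 16 against day 6, 23 replication genes and 32 mitotic genes fell, with medians of -1.01 and -1.0, which lie below the medians of day 30 against day 4. Relative to each gene's mean over the 7 days, the replication list stood at 0.54 on day 4, -0.62 on day 16, -0.54 on day 25 and -0.25 on day 30 (median over members, log2).

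The hexamer TTTGAA belongs to the cell cycle homology region, a site of the DREAM complex in the promoters of mitotic genes. It was found before 16 of 46 mitotic genes with a promoter sequence (34.8%), and 9 of the 16 fell. The share was 18.3% over all promoters and 13.6% over those of tested genes. The CCAAT box was found before 34 of the 46 (73.9%), against 37.5% of all promoters and 39.4% of those of tested genes. The windows of Cdc20 and Kif22, a kinesin of chromosome arms, are shown because both fell and the hexamer lies close to the gene's start; capitals mark it, on the other strand in Kif22.
Cdc20: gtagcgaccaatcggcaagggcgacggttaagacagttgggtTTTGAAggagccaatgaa
Kif22: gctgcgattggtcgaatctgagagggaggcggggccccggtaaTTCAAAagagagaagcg
They lie at chr4:118437344-118437403 (minus strand) for Cdc20 and chr7:127042421-127042480 (minus strand) for Kif22, and the CCAAT letters, on either strand, stand in lower case in the same windows. Kif22 fell by 1.61 on the log2 scale (adjusted p = 5.75e-05). The hexamer lies 13 bases before the start in Cdc20 and 12 in Kif22. It lies about as close in Cdk1, Kif11 and Top2a (10, 14 and 18 bases), which did not pass. A match of 6 letters is common, and over all tested genes with TTTGAA 186 of 1689 fell, a share near the 10.4% of all genes.

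DNA repair gave 17 falls and 1 rise among 40, with a median of -0.72. The base excision enzymes Ung and Apex1 and their scaffold Xrcc1 fell 3.86-fold, adjusted p = 0.000403, 3.55-fold, adjusted p = 4.05e-06 and 3.58-fold, adjusted p = 0.000213. The rise was that of Fancc, at 2.26-fold, which did not pass without day 4 replicate 2 or day 30 replicate 1. Nucleotide synthesis and folate enzymes fell in 17 of 35, with 0 rises (limma; 0 at an unadjusted p under 0.05). Cad, which starts pyrimidine synthesis, had a log2 signal of 9.62, 9.48 and 8.69 on day 30, against 11.74, 13.11 and 12.04 on day 4, a difference of -3.03 ± 0.35 (SE, adjusted p = 2.78e-06). Gldc, the glycine decarboxylase, fell 8.28-fold, adjusted p = 4.84e-05, and the folate enzymes Shmt1 and Mthfd1 fell 4.98-fold and 4.21-fold.

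RNA processing and chromatin were also lower on day 30. Of 72 splicing factors, 35 fell and 3 rose, with a median of -0.74 and 20 falls on day 16 against day 6. Ptbp1, a repressor of neural and muscle exons, fell at least 12-fold, adjusted p = 9.69e-07 (2 other probe sets did not pass), and Prpf19, a core spliceosome ligase, fell 3.96-fold, adjusted p = 5.38e-05. Against them, Mbnl1 and Mbnl2, which promote adult splice forms, rose 7.04-fold, adjusted p = 0.000122 and 9.69-fold, adjusted p = 6.7e-07. In day 16 against day 6 the Mbnl1 and Mbnl2 differences were 1.57 and 2.34.

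Of 57 DNA methylation, Polycomb and histone enzymes, 18 fell and 2 rose, and 10 fell in a fit of the 2 days alone. Dnmt3b, a de novo DNA methyltransferase, had a log2 signal of 10.21, 10.72 and 10.00 on day 30, against 14.32, 14.81 and 14.93 on day 4, which is 20.8-fold lower. Phc1, a Polycomb subunit, fell 8.21-fold, adjusted p = 1.86e-06. Kat2a, a histone acetyltransferase, fell 5.61-fold, adjusted p = 4.5e-05, and Mbd3, a subunit of the NuRD complex, fell at least 4.92-fold, adjusted p = 0.000457; Mbd2, the alternative subunit of that complex, rose at least 5.89-fold (at least 9.01-fold when day 4 replicate 1 was left out). Chromatin remodellers and histone chaperones gave 16 falls and 1 rise among 39. Atrx fell 4.8-fold, adjusted p = 2.07e-05, while Smarca2, the ATPase Brm of the SWI/SNF complex, rose 3.52-fold, adjusted p = 0.000241.

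The nuclear envelope and transport list held 25 falls and 4 rises among 54, with 23 falls on day 16 against day 6. Lmnb2, a B-type lamin, fell 6.55-fold, adjusted p = 6.24e-05, the pore proteins Nup98 and Nup210 fell at least 5.68-fold and 5.15-fold, and Syne1, a linker between nucleus and cytoskeleton, rose 3.85-fold, adjusted p = 7.66e-06. Rcc2, a regulator of chromosome condensation and cell spreading, had 10.30, 10.40 and 10.50 on day 30, against 13.49, 14.31 and 13.53 on day 4, and its difference was -3.37 ± 0.23 (SE, adjusted p = 7.99e-09).

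Mitochondrial genes fell in 2 sets of unlike size. Of 64 genes of mitochondrial import, translation and folding, 30 fell and 0 rose (limma; 0 at an unadjusted p under 0.05), with a median of -0.77. Mrpl11, a mitochondrial ribosomal protein, had 11.08, 11.29 and 11.81 on day 30, against 13.42, 13.94 and 13.82 on day 4, a difference of -2.33 ± 0.29 (SE, adjusted p = 7.61e-06). The translation factor Tsfm and the chaperonin Hspe1 fell 4.64-fold and 3.38-fold. Of 74 respiratory chain genes, 22 fell and 2 rose, with 10 falls in a fit of the 2 days alone. Ndufs8 and Ndufa10, subunits of complex I, fell 2.46-fold and 2.41-fold. Within a single scan day, on day 16 against day 6, the medians were -0.31 and -0.06, with 3 and 1 falls.

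Other branches of metabolism were mixed. Glycolysis and pentose phosphate genes gave 11 falls and 2 rises among 33. The falls numbered 7 in a fit of the 2 days alone and 6 with the Gapdh 3'/5' ratio as a covariate. Pkm, pyruvate kinase, fell 3.03-fold, adjusted p = 0.00012, Pfkl fell 2.55-fold, adjusted p = 4.7e-05 and Pdk3, which inhibits pyruvate dehydrogenase, fell at least 6.3-fold, adjusted p = 0.000164, while Hk1, hexokinase, rose 3.18-fold, adjusted p = 6.57e-05. TCA cycle and fatty acid oxidation genes gave 8 rises and 3 falls among 41, a split that moved to 5 rises in several alternatives, and the median of 0.02 changed sign under median centring or quantile normalization. Acaa2, a thiolase of fatty acid oxidation, rose 3.35-fold, adjusted p = 6.34e-06, and Idh3g, a subunit of isocitrate dehydrogenase, fell 2.7-fold, adjusted p = 0.000483.

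Several enzymes of cholesterol synthesis fell, and a cholesterol exporter rose. Of 28 tested genes, 13 fell and 4 rose. Dhcr7, which makes cholesterol from 7-dehydrocholesterol, also the precursor of vitamin D, had a log2 signal of 10.77, 9.79 and 9.69 on day 30, against 12.55, 12.91 and 12.73 on day 4. The difference was -2.65 ± 0.28 (SE, adjusted p = 1.11e-06), and Idi1 and Mvk of the mevalonate pathway fell 6.33-fold, adjusted p = 6.22e-05 and 5.15-fold, adjusted p = 0.000317. Abca1, which exports cholesterol to apolipoproteins, rose 5.33-fold, adjusted p = 1.33e-06. Of the 22 list members with a promoter sequence, 19 hold a CCAAT box (86.4%), of which 10 fell. The box lies in 37.5% of all promoters and 39.4% of those of tested genes. Lipid synthesis, storage and apolipoprotein genes split evenly, with 9 rises and 8 falls among 43; Apoa1 rose 5.94-fold, adjusted p = 0.00327 and the desaturase Fads2 fell 5.38-fold, adjusted p = 6.92e-05. Amino acid synthesis and transport gave 10 falls and 6 rises among 38, with 3 rises in a fit of the 2 days alone and 1 without day 30 replicate 2.

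Glutathione, redox and metal-binding genes rose in 14 of 46 and fell in 2, with 16 rises on day 16 against day 6. Gsto1, a glutathione transferase, had 15.41, 14.31 and 14.89 on day 30, against 10.93, 11.51 and 11.83 on day 4, a difference of 3.45 ± 0.34 (SE, adjusted p = 4.58e-07). The membrane-bound transferases Mgst1 and Mgst2 rose 6.29-fold, adjusted p = 5.16e-05 and 11.3-fold, adjusted p = 0.00207, while Gstt2 fell at least 4.5-fold, adjusted p = 0.00355. Cytosolic chaperones and proteasome genes went the other way, with 23 falls and 4 rises among 61; 13 fell in a fit of the 2 days alone or without day 30 replicate 1. Fkbp4, a co-chaperone of Hsp90, fell 5.63-fold, adjusted p = 1.34e-06, and the inducible Hspa1b rose 4.31-fold, adjusted p = 6.94e-05. The list of cytosolic chaperones and proteasome genes and the list of ER chaperones thus had medians of opposite sign, -0.50 and 1.33.

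**Figure D3:**
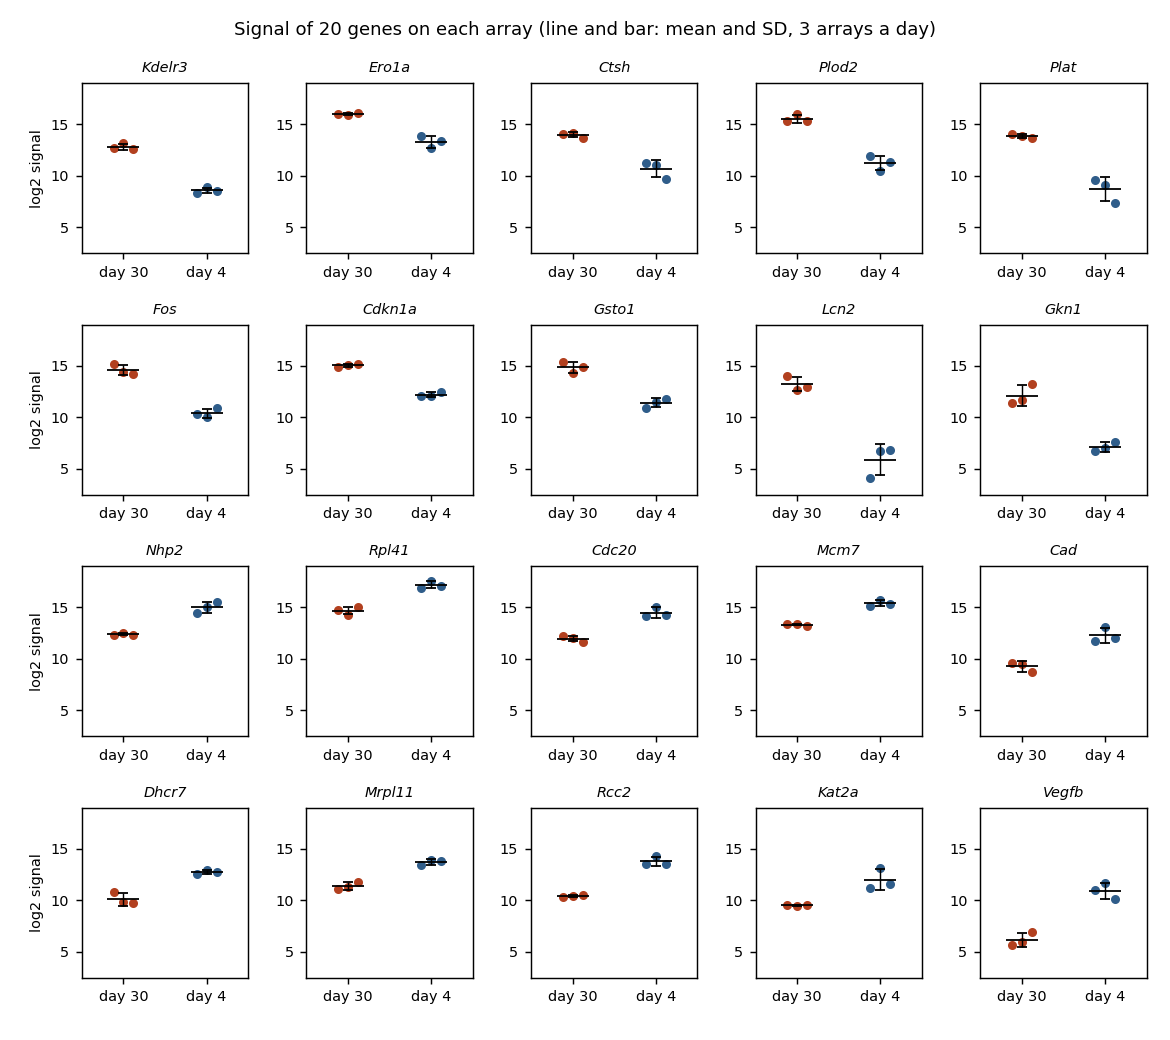
Log2 signal of 20 genes on each of the 3 day 30 arrays (left in each panel) and the 3 day 4 arrays (right), with the mean and SD as a line and bar. The upper 2 rows hold genes that were higher on day 30, such as Kdelr3 and Fos, and the lower 2 rows genes that were lower, such as Nhp2 and Mcm7. In no panel do the days overlap, but these genes were picked for large called differences. Over all 15592 genes, 34% do not overlap.

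Genes of epithelia, gut mucosa and plasma proteins rose as well. Of 59 epithelial junction and keratin genes, 21 rose and 1 fell. Krt7 and Krt19, keratins of simple epithelia, each rose 16.5-fold (adjusted p = 2.22e-08 and 1.15e-07), and Krt14, a basal layer keratin, rose at least 27-fold, adjusted p = 6.22e-06. The desmosomal plakophilin Pkp2 fell 3.43-fold, adjusted p = 0.000197. The summed signal of 11 epithelial markers, of which 5 rose, was 125487 to 198860 on day 30, against 57407 to 98135 on day 4; their part in other lists was not tested. Among the 11, Cdh1, Epcam, Krt8, Krt18, Cldn7 and Cldn6 did not pass, with differences of 0.24, 0.71, 1.19, 1.10, 0.78 and -0.23. Among 48 gastric, gut and secretory mucosa genes 19 rose and 1 fell. Gkn1, a secreted gastric protein, had 11.40, 11.72 and 13.25 on day 30, against 6.76, 7.01 and 7.66 on day 4, and Psca, a membrane antigen of stomach and bladder, rose at least 34.1-fold, adjusted p = 1.28e-06. Car2, carbonic anhydrase, fell 6.83-fold, adjusted p = 2.92e-05.

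Of 46 plasma protein, complement and coagulation genes, 22 rose and 0 fell (limma; 0 at an unadjusted p under 0.05), with a median of 1.59 and 19 rises on day 16 against day 6. Lcn2, a siderophore-binding acute phase protein, had 14.07, 12.69 and 12.97 on day 30, against 4.16, 6.77 and 6.82 on day 4. The day 4 values lie at the bottom of the scale, so the rise is a bound of at least 78.4-fold. F3, tissue factor, rose at least 58.9-fold, adjusted p = 6.7e-06. The summed signal of 10 yolk sac and liver endoderm markers, of which 5 rose, was 44800 to 62111 on day 30, against 4218 to 20173 on day 4. Amn, Hnf4a, Apob, Ttr and Cubn did not pass, with differences of 0.18, 0.21, 0.32, 2.23 and 3.00. The brightest of the 10 on day 30 were Afp, which rose, and Ttr, at 13.99 to 14.86 and 12.91 to 13.91. Leaving out day 4 replicate 1 moved the Afp difference from 6.02 to 7.35, and leaving out replicate 3 moved it to 4.86.

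Of 49 cytokine, chemokine and innate receptor genes, 20 rose, 1 fell and 21 rose on day 16 against day 6. The neutrophil chemokine Cxcl1 rose at least 23.3-fold on 430A and 26.5-fold on 430B, through different probe sets. Cxcl5 rose at least 21.1-fold, adjusted p = 7.85e-07, Il33, an alarmin, rose 7.44-fold, adjusted p = 0.000457 and the oncostatin M receptor Osmr rose 16.2-fold, adjusted p = 1.41e-06, though its 2 other probe sets did not pass. The chemokine receptor Cxcr4 fell at least 3.67-fold, adjusted p = 0.00244. Of 47 MHC, antigen processing and interferon genes, 10 rose and 3 fell; the falls were 5 in a fit of the 2 days alone, with median centring or without day 4 replicate 1. B2m, the invariant chain of class I molecules, rose 5.2-fold, adjusted p = 4.12e-08, and Ifitm1 fell 5.96-fold, adjusted p = 7.44e-05. Macrophage markers rose in 5 of 29 (17.2%, against 12.1% of all genes). Csf1r led them (8.22-fold, adjusted p = 8.11e-06), and Itgam and Aif1 lay under the filter on low signal. On day 16 against day 6, 12 of the macrophage list rose, and the median was 1.85, against 0.86 on day 30 against day 4.

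The counts for markers of other lineages are set against the 12.1% of all genes that rose and the 10.4% that fell. Endothelial markers gave 9 rises (34.6%) and 1 fall (3.85%) among 26, but on day 16 against day 6 there were 3 rises and 3 falls. The adhesion molecule Vcam1 rose at least 20.4-fold, adjusted p = 2.4e-05, and Sox7, a factor of both endothelium and primitive endoderm, rose 19-fold, adjusted p = 2.16e-05. The fall was that of Kdr, the main endothelial VEGF receptor, 2.72-fold with adjusted p = 0.0243; it was 1.71-fold without day 4 replicate 1, 4.95-fold without day 4 replicate 3, and it did not pass without day 4 replicate 1 or 2 or day 30 replicate 2. Plvap, Sox18, Robo4, Egfl7, Pecam1 and Erg did not pass, with differences of -2.04, -1.41, -0.51, -0.05, 0.61 and 0.21. The summed signal of 13 endothelial markers overlapped, at 11705 to 18167 on day 30, against 7857 to 17061 on day 4. Cardiac and skeletal muscle markers gave 7 rises (21.2%) and 1 fall (3.03%) among 33, and 4 rises without day 4 replicate 3, day 30 replicate 1 or day 30 replicate 2. Neural markers gave 2 rises (8.7%) and 4 falls (17.4%) among 23, with Crmp1 lower (at least 9.9-fold, adjusted p = 0.000272); 0 rose without day 30 replicate 3. Of 16 erythroid markers 1 passed (6.25%), Ank1, which did not pass without day 4 replicate 1 or 3 or day 30 replicate 1; the median was -0.67, and -2.33 on day 16 against day 6.

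Lists of early embryonic factors and signals held more falls than rises. Pluripotency factors gave 10 falls and 2 rises among 28, and Klf4 was among the rises. Otx2, a factor of epiblast and anterior neural tissue, had 5.79, 4.60 and 7.61 on day 30, against 11.99, 12.61 and 13.22 on day 4, and fell at least 43.4-fold, adjusted p = 2.99e-05. Among 28 Nodal, Lefty and FGF genes 6 fell and 3 rose; Fgf15 fell at least 12.7-fold, adjusted p = 7.8e-06 and the receptor Fgfr3 rose 3.97-fold, adjusted p = 0.00841. The rises were 1 without day 30 replicate 1 or 3. Lin28, Igf2bp and HMG box genes gave 4 falls among 15, 7 without day 4 replicate 3, with Hmgb2 lower (3.82-fold, adjusted p = 0.00266). Germ cell and meiosis genes gave 3 falls and 1 rise among 14, of which Syce2, a synaptonemal complex protein, fell 3.18-fold, adjusted p = 0.00162. These falls were 1 without day 4 replicate 3 or day 30 replicate 2, and the rise was absent without day 4 replicate 2 or day 30 replicate 2 or 3.

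Of 52 TGF-beta, BMP and IGF genes, 15 rose and 3 fell, and the falls were 7 without day 4 replicate 3 and 5 without day 30 replicate 1. Igfbp7 and Igfbp1, which bind insulin-like growth factors, rose 14-fold (adjusted p = 7.04e-06) and at least 34.1-fold (adjusted p = 4.73e-05), and Inhba, the activin A subunit, and Tgfbr2, the type II receptor, rose 11.6-fold, adjusted p = 3.76e-05 and 9.78-fold, adjusted p = 2.93e-07. Bmp4 fell 6.37-fold (10.5-fold when day 4 replicate 3 was left out). Of 59 receptor tyrosine kinase, ephrin and guidance genes, 16 rose and 2 fell. Here the vascular growth factors went opposite ways: Vegfb had 5.64, 5.92 and 6.94 on day 30, against 11.01, 11.66 and 10.12 on day 4, which is at least 15.8-fold lower, and Vegfa rose at least 9.81-fold (at least 17-fold when day 4 replicate 1 was left out and 6.01-fold when day 4 replicate 2 was left out). Wnt, Notch and Hedgehog genes gave 15 falls and 9 rises among 57, with 5 rises without day 4 replicate 3 or day 30 replicate 1; the Notch ligand Dll3 fell 5.96-fold, adjusted p = 0.000945 and Tcf7l2, a nuclear effector of Wnt, rose at least 6.48-fold, adjusted p = 2.79e-05.

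Vitamin D and retinoid genes rose in 13 of 29 and fell in 4, and in 2 without day 4 replicate 1 or 2 or day 30 replicate 1 or 3. Beside the vitamin D target Cyp24a1, which rose at least 49.9-fold, the chemoattractant Rarres2 rose at least 11.1-fold, adjusted p = 2.28e-05, Tgm2, transglutaminase 2, rose 8.58-fold, adjusted p = 0.00098 and the retinoic acid hydroxylase Cyp26b1 rose 16.6-fold (30.1-fold when day 4 replicate 1 was left out). Imprinted genes gave 9 falls and 3 rises among 32, with Mest lower (5.96-fold, adjusted p = 0.000567). For comparison, osteoblast genes rose in 8 of 17 tested, with a median of 1.24, and in 5 on day 16 against day 6.

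Some of the largest changes were of genes not named above. On 430A, Parm1, a mucin-like membrane protein, rose at least 49.7-fold, adjusted p = 1.17e-05, Srgn, the granule proteoglycan serglycin, rose 34.1-fold, adjusted p = 6.26e-08 and Plet1, a surface protein of placental and epithelial progenitors, rose 36.4-fold, adjusted p = 6.55e-07. On 430B, Epas1, the hypoxia-inducible factor 2 alpha, rose 29.7-fold, adjusted p = 2.27e-06, Upk1b, a urothelial plaque protein, rose 25.9-fold, adjusted p = 3.95e-05, and Ypel2 rose 26.4-fold, adjusted p = 6.36e-08. Fosl2, another AP-1 subunit, rose 28.4-fold on 430B (46.5-fold when day 4 replicate 1 was left out), and its 430A probe set did not pass. Cemip rose at least 26.6-fold, adjusted p = 6.5e-06 there, and another of its probe sets was called the other way.

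Among the falls, the transcription factors Tcfl5 and Eomes fell 24.4-fold, adjusted p = 1.58e-07 and 10.5-fold, adjusted p = 0.000502. Socs2, an inhibitor of cytokine signalling, fell 9.1-fold, adjusted p = 9.55e-05, Ybx3, a cold shock protein, fell 20.2-fold (12.1-fold when day 30 replicate 2 was left out), and Gjc1, connexin 45, fell at least 33.9-fold, adjusted p = 8.91e-06. Snhg14 and Snhg3, hosts of small nucleolar RNAs, fell 24-fold, adjusted p = 5.31e-08 and 12.1-fold, adjusted p = 0.0076. In day 16 against day 6 the Tcfl5, Eomes, Socs2 and Gjc1 differences were -1.43, -1.07, 0.13 and -2.69. Of 259 probe sets named by rule, 154 have other tested probe sets of the same gene; in 105 of these another was called the same way, in 48 none was called, and in 1, Cemip, another was called the opposite way.

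The functions took different paths between the 2 ends. The ER list stood at -0.71 on day 4, 0.24 on day 16, 0.52 on day 25 and 0.80 on day 30 (median over members of the day mean relative to the gene's mean over 7 days, log2). Immediate early genes stood at -0.96 on day 5, -0.16 on day 6 and 0.85 on day 16, and at 0.62 on day 30. Collagen processing was at 0.85 on day 16 and 0.55 on day 30. Ribosome biogenesis stood at 0.67, -0.06, -0.36 and -0.49 on days 4, 8, 16 and 30. Ribosomal proteins, in contrast, were at 0.65 on day 4, -0.19 on day 6, and -0.01 on day 30.

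**Figure D4:**
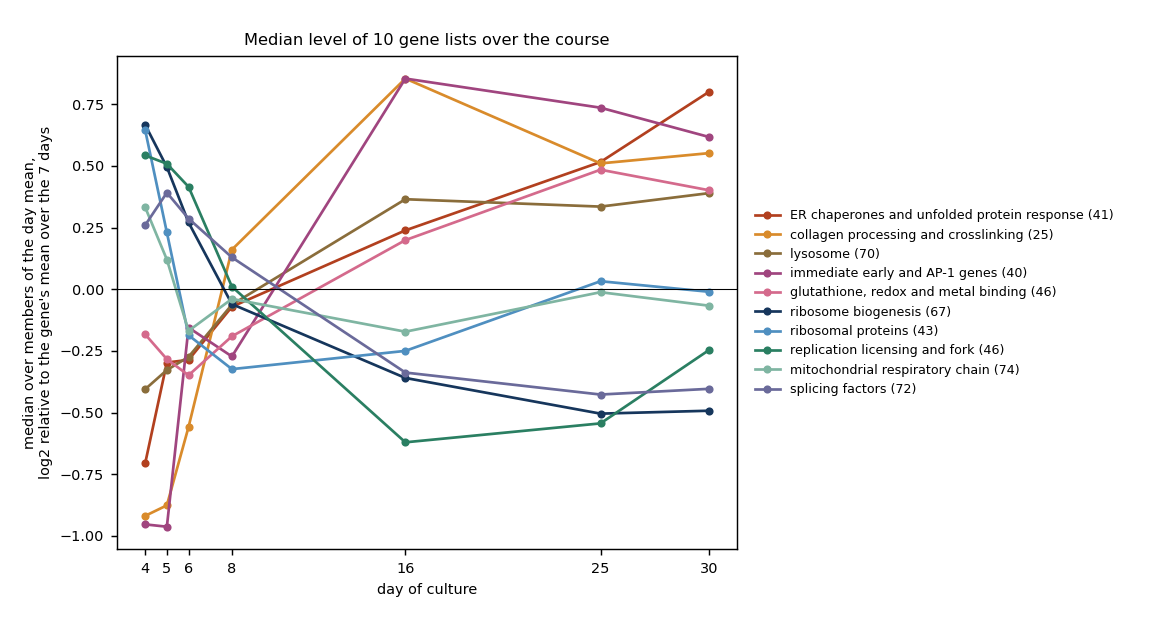
Median over the members of 10 gene lists of the day mean minus the gene's mean over the 7 days, in log2 units, against day of culture; the number of tested members stands in the legend. ER chaperones reach 0.80 on day 30, while ribosome biogenesis lies at 0.67 on day 4 and -0.49 on day 30; scan days change along the axis.

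Within a single scan day most of the differences had the same sign. Of the 3140 probe sets that rose on day 30 (8.99% of 34925 on both chips), 85.8% were higher on day 16 than on day 6 and 28.4% rose there, and 3 fell. Of the 2943 that fell (8.43%), 84.2% were lower on day 16 than on day 6 and 17.0% fell there, and 4 rose. Of the 28842 that did not pass, 13255 were higher on day 16, and 1.56% rose and 1.22% fell. Among the lists, the gap between the medians of the 2 comparisons was widest for the erythroid markers (-0.67 on day 30 against day 4, -2.33 on day 16 against day 6) and the collagen chains (0.44 and 1.60). Endothelial markers had medians of opposite sign, 0.63 and -0.36, and so had the cardiac and skeletal muscle markers, 0.49 and -0.23, and the neural markers, -0.49 and 0.04. Between the chips, 100 probe sets that both carry gave differences of the same sign in 87, and all 24 that passed on both had the same sign.

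The other lists gave these counts on day 16 against day 6, where 5.6% of all genes rose and 3.48% fell. Among matrix and attachment genes, rises numbered 14 in basement membrane and proteoglycans (median 0.79), 12 in glycoproteins and elastic fibre (1.22), 5 in integrins and focal adhesion (0.49) and 16 in actin, annexins and S100 proteins (0.53), with 1 fall, in the integrin list. Epithelial junctions and keratins gave 21 rises and 1 fall (0.87), the gastric, gut and secretory list 11 rises and 1 fall (0.49), the MHC and interferon list 8 rises and 0 falls in limma (0.62; 0 lower at an unadjusted p under 0.05), and p53 targets and cycle inhibitors 9 rises and 1 fall (0.54). Falls numbered 15 in DNA repair (-0.79), 9 in nucleotide synthesis (-0.79), 8 in DNA methylation and histone enzymes, with 2 rises (-0.36), 10 in chromatin remodellers (-0.45) and 16 in cytosolic chaperones and proteasome, with 3 rises (-0.50). In metabolism there were 2 rises and 7 falls for cholesterol (-0.29), 8 and 3 for lipid synthesis (0.24), 1 and 1 for glycolysis (-0.05), 2 and 0 for the TCA cycle (0.15) and 1 and 0 for amino acids (-0.18); at an unadjusted p under 0.05 in limma 0 TCA cycle genes and 2 amino acid genes were lower.

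In the same comparison, pluripotency factors gave 2 rises and 3 falls (median -0.57), Nodal, Lefty and FGF genes 0 and 3 (-0.14), Lin28 and HMG box genes 1 and 6 (-0.74), and germ cell genes 0 and 1 (-0.06). TGF-beta, BMP and IGF genes gave 11 rises and 0 falls (0.20), receptor tyrosine kinases, ephrins and guidance genes 11 and 1 (0.27), vitamin D and retinoid genes 9 and 2 (0.67), and imprinted genes 2 and 2 (-0.07). Wnt, Notch and Hedgehog genes gave 7 rises and 1 fall there (-0.04), against 9 rises and 15 falls on day 30 against day 4. At an unadjusted p under 0.05 in limma, 0 Nodal, Lefty and FGF genes and 1 germ cell gene were higher, and 1 gene of the TGF-beta list was lower. Cardiac and skeletal muscle markers gave 1 rise and 1 fall, and neural markers 1 and 2.

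**Figure D5:**
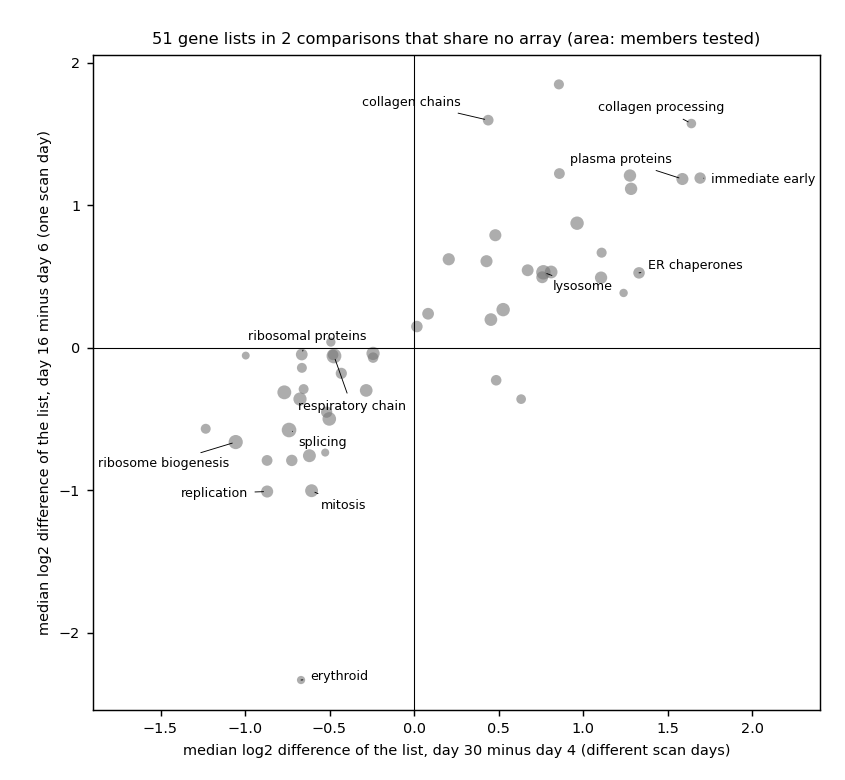
Median log2 difference of 51 gene lists on day 30 minus day 4 (x axis) and on day 16 minus day 6 (y axis), 2 comparisons that share no array; the area of a point is the number of members tested. ER chaperones lie at 1.33 and 0.53, ribosome biogenesis at -1.06 and -0.66, and the ribosomal proteins at -0.66 and -0.05.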

How the data were processed

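RNA of 6 samples (12 arrays) was read on MOE430A and MOE430B arrays. The authors deposited a MAS5 intensity, the signal of each probe set, for every array; MAS5 is named in the submitters' processing notes, and its scaling target is not given in the sources used here. Intensities are on a linear scale and were used without further scaling. Control probe sets were removed, and testing was limited to probe sets brighter than the 40th percentile of the array in 3 or more of 21 arrays. Each chip was fitted by itself with limma 3.58.1 in R 4.3.3 (day as a factor, 21 arrays, contrast day 30 minus day 4, eBayes with trend, two-sided, 14 residual degrees of freedom), with Benjamini-Hochberg adjustment over the chip and a threshold of 0.05. The fit was tested on simulated data. The number of arrays limits the precision.

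A fold is a lower bound where a value of the lower day lay under the chip's 20th percentile (log2 6.95 on 430A and 7.67 on 430B) and was raised to it. Each gene is represented by the brightest tested 430A probe set, by mean, and by a 430B probe set where 430A has none. Symbols come from the platform annotation, which gives 1 symbol to 20393 probe sets of 430A and 14674 of 430B. Named genes are the 15 largest rises and falls of each chip among non-overlapping, brighter probe sets, and up to 4 members of each list with the largest called difference plus the largest the other way. Other list members, and those picked by a promoter motif, were chosen after their values were seen. The members and the 51 lists were chosen with earlier results of these data known, so counts and medians are descriptions. Promoters are RefSeq sequences of GRCm38.p6; 13 motifs were searched.

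Alternatives covered the filter, scaling, an offset of 64, a fit of the 6 arrays of a chip alone, the trend, control-gene 3'/5' ratios as covariates, a replicate block and leaving out each replicate. Scan days and chip lots were read from the array files. The other days enter as part of the fit and as day 16 against day 6.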

Additional observations from a re-analysis of the deposited data

How the results depend on the processing

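On 430A the 4695 called probe sets numbered 3211 to 5008 under the other settings, and 3838 to 4531 with 1 replicate left out. On 430B the 1388 called probe sets became 718 in a fit of the 6 arrays of day 30 and day 4 alone. They were 1002 to 1214 with 1 replicate left out. The fit of 6 arrays leaves fewer degrees of freedom and takes the spread from these 2 days only. Median correlations between arrays of a day on 430B were 0.776 to 0.791 on day 30 and 0.787 to 0.794 on day 4. They were 0.81 to 0.84 on days 5, 6, 8 and 16. The cause of the lower count was not tested. Called list members, 939 in all, ranged between 794 and 904 with 1 replicate left out and were 746 with the 6 arrays alone. With the Gapdh 3'/5' ratio as a covariate the calls were 3871 on 430A, 990 on 430B and 804 over list members. Rises then made up 63.7% of the 430B calls, and 15 named genes lost the call. On day 16 against day 6, the 321 calls of 430B became 149 without the trend in eBayes; the cause was not tested. Of 4138 alternative values of named genes, 4033 kept their direction and their side of the threshold, 105 lost the call and 0 reversed. Small counts within a list moved by over 1.5 times with 1 replicate left out: rises ranged over 2 to 4 for the nuclear envelope list, 0 to 2 for the respiratory chain, 1 to 2 for glycolysis and 0 to 2 for translation factors, and falls over 2 to 4 for actin, annexins and S100 proteins, 1 to 3 for glycoproteins, 0 to 3 for integrins, 0 to 2 for immediate early genes, 1 to 2 for p53 targets and for gastric genes, 0 to 2 for endothelial markers and 2 to 4 for receptor tyrosine kinases. A stricter filter on low signal brought the medians of plasma proteins to 2.65, of vitamin D genes to 2.01, of MHC genes to 0.39, of germ cell genes to -0.58 and of Wnt genes to -0.44, with fewer members tested. Of 914 genes in the lists that passed, 278 lost the call in at least 1 of the fits with a replicate left out.

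The deviations of same-numbered samples of day 30 and day 4 correlated at -0.04 to 0.01 (Pearson, 3 numbers on each chip). Not every sample correlated best with its own number. Other pairs of days were not examined this way, so pairing by replicate number is not settled. With a replicate block the calls were 5008 on 430A and 1486 on 430B, 1006 over list members, and 2120 and 389 on day 16 against day 6. Each of these counts is larger than without the block (4695, 1388, 939, 1881 and 321). Probe sets near the 20th percentile have differences that signal over background limits.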

Other observations

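Beside the promoter letters described above, other motifs were searched in the same 250 bases. Of 785 tested genes with the AP-1 letters TGANTCA, 116 rose on day 30 relative to day 4 (14.8%) and 50 fell (6.37%), against 12.1% and 10.4% of all tested genes. Of 53 tested genes with 2 copies of CATG that are 6 bases apart, as in a p53 site, 11 rose (20.8%) and 2 fell (3.77%). The cAMP response element TGACGTCA gave 37 rises and 39 falls among 331 genes (11.2% and 11.8%), and the hypoxia response letters ACGTGC gave 118 rises and 129 falls among 942 (12.5% and 13.7%). These are 4 of 13 motifs searched, named after their counts were seen, and no test was run on them.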
